A study of Mus musculus with 10 samples.

Results

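Transcript levels and their variation between animals were described in the hippocampus of 5 control mice. These 5 arrays, titled as Dp3Yah controls, are 5 of the 10 arrays considered; the other 5 come from Dp3Yah mice and enter no value given here. The control mice were 16-week-old males, wild type (WT) by the genotype label, and littermates of Dp3Yah mice, which carry a duplication of the chromosome 16 interval from Hspa13 to App. The labels give their background as C57BL/6N, whereas the study's methods describe breeding towards C57BL/6J. They received no treatment that the labels name. Total RNA was extracted from the whole hippocampus, right and left together, and hybridised to 1 Affymetrix Mouse Gene 1.0 ST array per mouse. Each value below is a log2 signal, so a difference of 1 is a doubling, and each gene is represented by 1 probe set assigned to that gene alone, the brightest where there were several. In this way 19939 genes were measured in each of the 5 mice, called control replicates 1 to 5.

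The hippocampus is a folded sheet of cortex that serves spatial and episodic memory. Information passes from the entorhinal cortex to granule cells of the dentate gyrus, then to pyramidal neurons of CA3, CA2 and CA1, and out through the subiculum. The structure lies on the thalamus and below the neocortex, is covered by meninges, and borders the lateral ventricle, where the choroid plexus secretes cerebrospinal fluid. A dissected hippocampus therefore holds its own neurons and glia, its vessels, and whatever of these neighbours comes away with it. In such bulk tissue a change in the number of cells of a type cannot be told apart from a change in RNA per cell.

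The arrays were alike as a whole after normalisation, which itself makes array distributions alike. The arrays' median log2 signals lay between 5.64 and 5.71, so their closeness was largely set by that step. No 2 arrays were identical, and over all genes the differences between any 2 mice had an SD of 0.13 to 0.17. The most unlike pairs were replicates 1 and 2 (0.173) and replicates 2 and 5 (0.171), and the most alike were replicates 4 and 5 (0.134). The labels name no batch. The samples differ by mouse only, and array handling and animal cannot be told apart.

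As a reference for signal without transcript, 1203 genes of odorant, vomeronasal and trace amine receptors were used. Their median mean level was 4.11, and the level below which 95% of them lay, 5.09, was taken as the floor. Of the 19939 genes, 14119 had a mean above it (70.8%). Of 86 keratin-associated and defensin genes, another set taken as unexpressed, 26 also passed it (30.2%), with means up to 7.91. A mean above the floor thus does not by itself show a transcript. Such signals depend on probe sequence, so the levels of different genes do not rank their transcripts. The brightest genes included small structural RNAs and protein-coding genes. The Y RNA gene Rny3 reached a mean of 13.96 and the 7SK RNA gene Rn7sk 13.89. Among protein-coding genes, Baiap2l1 had 13.88, the ferritin heavy chain gene Fth1 13.48, cystatin C (Cst3) 13.44, visinin-like Vsnl1 13.42, Actb 13.35 and the presynaptic membrane protein gene Snap25 13.17.

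The labelled tissue and sex were checked against defining genes. Of 15 genes of dentate granule cells, 14 were above the floor, among them Prox1, the transcription factor of granule cell identity (mean 8.57), the calcium-binding protein gene Calb1 (9.88) and the C1q-like genes C1ql2 (8.44) and C1ql3 (9.80). All 9 measured CA1 genes were above it, with Wfs1 at 9.97, Mpped1 at 10.10 and Pou3f1 at 8.70, as were all 8 measured CA3 genes, with the kainate receptor gene Grik4 at 8.78. Of 8 CA2 genes 7 were, with Rgs14 at 8.31 and Pcp4 at 12.21. The data thus hold the neurons that the label names. The Y-linked genes Eif2s3y, Kdm5d, Uty and Sry were above the floor, at 7.10, 6.53, 6.71 and 5.95. Xist, which is transcribed from the inactive X chromosome of females, read 4.13 to 4.33 in the 5 mice, below it. Usp9y (4.14) and Zfy1 (4.00) were also below the floor. All 5 mice thus carried the signals of males.

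Glial and vascular genes were measured in the same RNA. All 18 astrocyte genes were above the floor, led by Apoe (12.35), the glutamate transporter gene Slc1a2 (12.31) and Aldoc (12.07). All 19 oligodendrocyte and myelin genes were, led by the myelin basic protein gene Mbp (12.06). Of 19 microglial genes 18 were, with Csf1r at 8.80 and Cx3cr1 at 8.61. All 19 interneuron genes were, with somatostatin (Sst) at 12.37, cholecystokinin (Cck) at 11.92 and the GABA-synthesising enzyme gene Gad1 at 10.47. Genes of blood and pituitary cells were measured too. Of 14 granulocyte and lymphocyte genes 6 exceeded the floor, the highest being Cd79b at 6.33. Of 8 pituitary genes 4 exceeded it, namely Lhb (6.62), Gh (5.47), Fshb (5.42) and Pitx1 (5.33), while Prl (4.24), Cga (4.58), Tshb (4.25) and Pomc (4.94) did not. Among the keratin-associated and defensin genes, taken as unexpressed, 30.2% exceeded the floor.

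Variation between mice was small for most genes. The SD between the 5 mice had a median of 0.08 over all genes and 0.09 over genes above the floor. Of the genes above the floor, 13445 (95.2%) had an SD under 0.2, while 30 genes exceeded 0.5 and 5 exceeded 1. The median gap between the highest and lowest mouse was 0.21. With 5 mice an SD is itself imprecise: its 95% interval, for normally distributed values, runs from 0.60 to 2.87 times the estimate. The spread depended on level in an arch. With genes split into 10 equal groups by level, the median SD was 0.06 in the dimmest group, at most 0.10 in the middle groups and 0.07 in the brightest. An SD above 0.16 placed a gene in the most variable 10% of genes above the floor (1412 genes), and the counts below are read against that share.

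**Figure D1:**
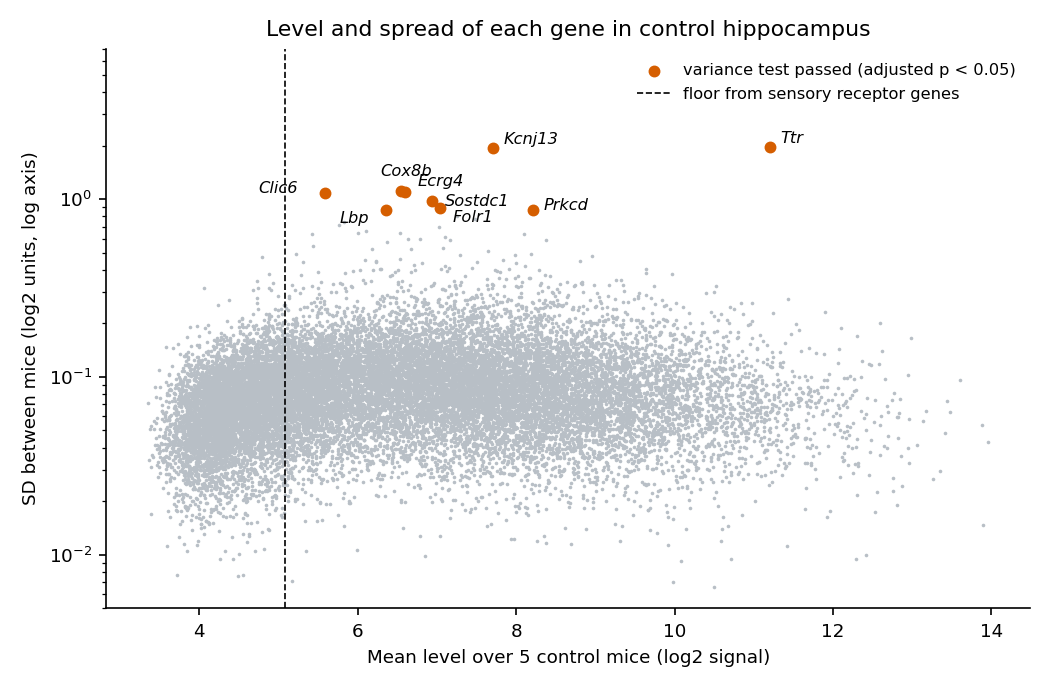
Each point is 1 of the 19939 genes, with its mean log2 signal over the 5 control mice on the x axis and the SD of its log2 signal between them on a logarithmic y axis. The dashed line is the floor at 5.09, and the 9 genes in orange, Ttr and Kcnj13 uppermost, passed the variance test.

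A test asked which genes varied more than others of the same level. Each gene's variance was set against limma's robust prior, which follows the trend of variance with level, in a one-sided F test with Benjamini-Hochberg adjustment over all 19939 genes. It called 9 genes at an adjusted p under 0.05 (0.0451% of all), while 1024 had an unadjusted p under that value. The 9 were Ttr, Kcnj13, Cox8b, Ecrg4, Clic6, Sostdc1, Folr1, Lbp and Prkcd. The first 8 share 1 order of mice, with replicates 1 and 5 far above the rest. The number called rested on those mice and on replicate 4: it was 2 without replicate 4, 2 without replicate 5, 6 without replicate 1, and 0 without replicates 1 and 5 together (981 genes at an unadjusted p under 0.05). Ttr and Kcnj13 were called whichever single mouse was left out.

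The choroid plexus genes held most of the called genes. The choroid plexus is a secretory epithelium around a vascular core, and its cells make transthyretin in very large amounts. Ttr, which encodes that carrier of thyroid hormone and retinol, had log2 signals of 13.25, 8.99, 10.17, 10.29 and 13.33 in replicates 1 to 5. Replicates 1 and 5 thus stood 2.95 or more above the others, and the highest mouse had 20.3 times the signal of the lowest (SD 1.97, limma adjusted p = 0.000346). Kcnj13, an inward-rectifier potassium channel of transporting epithelia, had 9.82, 6.58, 6.19, 6.16 and 9.82. Its 2 groups of mice did not overlap, and the highest was 12.6 times the lowest (SD 1.93, limma adjusted p = 0.00102).

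The same mice were high for the other called members. Clic6, an intracellular chloride channel protein, had 6.68, 4.82, 4.85, 4.72 and 6.86 (SD 1.09, limma adjusted p = 0.0182), and the 3 lower mice lay under the floor. Sostdc1, a secreted antagonist of BMP and Wnt signals that is also listed for CA2 neurons, had 7.90, 6.24, 6.34, 6.12 and 8.09 (SD 0.97, limma adjusted p = 0.0298). Folr1, the folate receptor through which the plexus carries folate into cerebrospinal fluid, had 7.81, 6.24, 6.41, 6.56 and 8.19 (SD 0.89, limma adjusted p = 0.0362). In each of the 3 genes both high mice were at least 1.25 above the next mouse.

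Of 24 choroid plexus genes listed, 21 were measured and 19 were above the floor; the means of Cldn2 (4.73) and Steap1 (5.00) were below it. All 19 had an SD in the most variable 10%, and in all 19 replicates 1 and 5 were both above the other 3 mice, an order found in 14.6% of all genes above the floor. That order was taken from these values, so the count describes it and tests nothing. Clic6, Tmem72 and F5 passed the floor only through replicates 1 and 5, which favours such genes in both counts. Without any floor, the order held in all 21 measured members and in 13.3% of all genes. The mean over the 19 genes was 7.49, 6.21, 6.26, 6.28 and 7.62 in replicates 1 to 5 (SD 0.72). Among replicates 2, 3 and 4 alone its SD was 0.03, although Ttr still differed between them by 1.30. The anti-ageing coreceptor gene Kl had 8.09, 6.44, 6.96, 6.66 and 8.13 and just missed the test (limma adjusted p = 0.0517). The transcription factor gene Otx2, needed for the plexus to form, had 6.50, 5.08, 5.30, 5.51 and 6.72. The smallest spread in the list, 0.27, was that of Igf2, which meningeal cells also express.

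Genes with the same order of mice were found outside the list. The 12 with the widest gap between the high and the low mice, of those in no list, included the 3 other called genes. Cox8b, a subunit of cytochrome c oxidase, had 7.45, 5.64, 5.69, 5.95 and 8.03 (SD 1.11, limma adjusted p = 0.0182). Ecrg4, which encodes a secreted peptide precursor, had 7.52, 5.62, 5.74, 6.10 and 8.01 (SD 1.09, limma adjusted p = 0.0182). Lbp, the lipopolysaccharide-binding protein gene, had 7.25, 5.52, 5.72, 5.96 and 7.31 (SD 0.86, limma adjusted p = 0.0416). None of the 3 had a mouse between its high and low values. The others were Cd59a, Pla2g5, Slc2a12, Stoml3, Pon3, Rdh5, Sulf1, Krt18 and Drc7, with SDs from 0.34 to 0.60.

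Ependymal genes, which build the motile cilia of the cells lining the ventricle, followed in part. Of 15 measured, 9 were above the floor and 6 of these were in the most variable 10%. All 9 were highest in replicate 5, against 20.3% of all genes above the floor. The list mean was 6.43, 6.17, 6.26, 6.32 and 6.61 (SD 0.17, and 0.11 without replicate 5), so replicate 1 was second but the span was much narrower than for the plexus. Tmem212 had 5.91, 5.33, 5.82, 5.97 and 6.17, and Foxj1, the master regulator of motile cilia, 5.95, 5.72, 5.77, 5.86 and 5.99.

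Thalamus and habenula genes varied along another order of mice. These nuclei lie just beneath the hippocampus, and their relay neurons express Tcf7l2, Lef1, Zic1 and Prkcd. Prkcd, which encodes protein kinase C delta, had 8.53, 7.00, 7.66, 8.65 and 9.20 (SD 0.87, limma adjusted p = 0.0298), and its highest mouse had 4.58 times the signal of its lowest. Zic1, a zinc finger transcription factor, had 7.70, 6.61, 6.75, 7.95 and 8.37 and missed the test (limma adjusted p = 0.0561). Tcf7l2, an effector of Wnt signalling, had 8.27, 7.55, 7.37, 8.38 and 8.92. Replicates 1, 4 and 5 were above replicates 2 and 3 in each.

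All 14 members above the floor, of 16 measured, had an SD in the most variable 10%. In 12 of the 14, replicates 1, 4 and 5 were all above replicates 2 and 3, against 16.9% of all genes above the floor, again an order read from these values. The mean over its members was 7.75, 7.36, 7.21, 7.88 and 8.15 (SD 0.38). Replicate 5 was the highest mouse for 13 of the 14, against 20.3% of all genes above the floor. Ramp3, a partner of calcitonin-family receptors, had 7.23, 6.76, 5.95, 7.48 and 7.71, and Synpo2, an actin-binding protein gene, 6.85, 6.05, 5.66, 6.87 and 7.21. The neuropeptide gene Tac2, which neurons of the habenula and scattered interneurons express, ran otherwise, at 7.45, 8.19, 7.79, 7.82 and 7.75. The defining habenular gene Gpr151 lay below the floor, at 4.64 to 4.78. Replicate 4 was thus high for thalamic genes (7.88) and low for plexus genes (6.28).

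**Figure D2:**
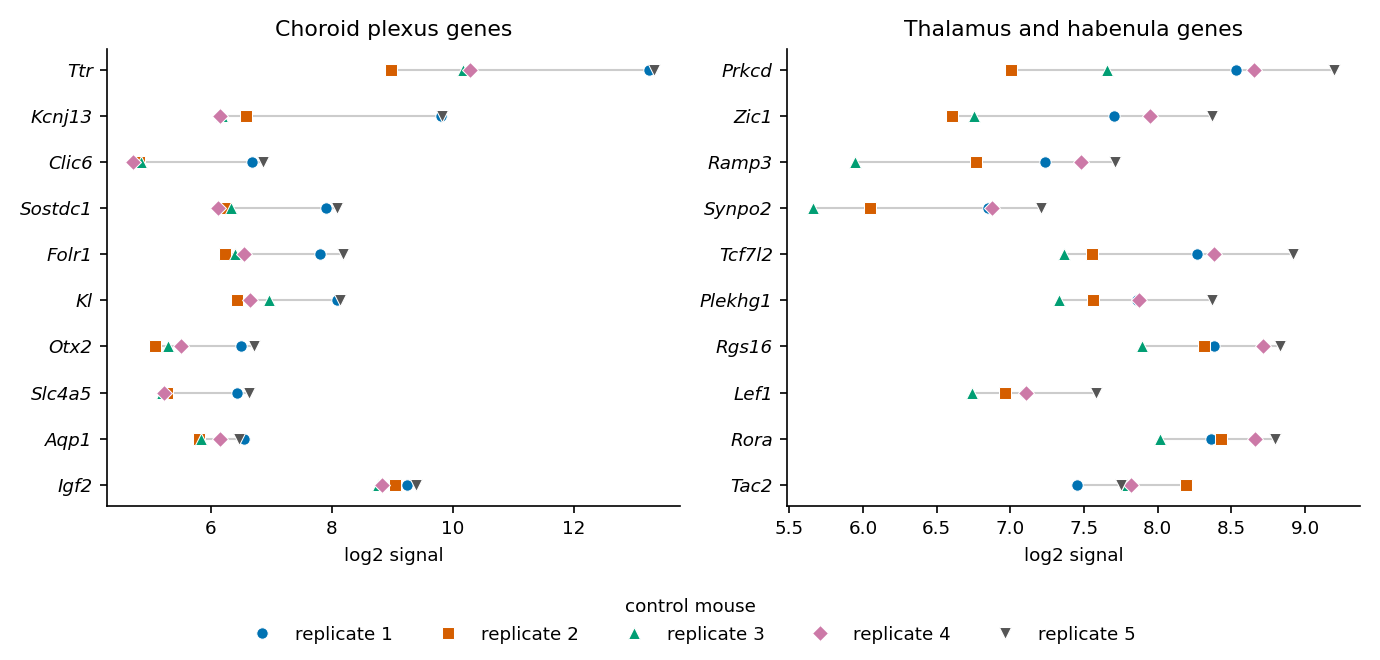
Log2 signal of 10 choroid plexus genes (left) and 10 thalamus and habenula genes (right) on the x axis, with 1 symbol per control mouse and a grey line from the lowest to the highest. Replicates 1 and 5 stand apart on the left, while on the right replicate 5 is highest for every gene shown but Tac2.

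The choroid plexus and thalamus lists were also counted among the most variable genes. Of the 60 genes with the largest SDs, 14 were in the choroid plexus list, 5 in the thalamus list and 35 in no list at all. Across the 1412 genes of the most variable 10%, replicate 2 was the highest mouse for 402, replicate 1 for 377, replicate 5 for 341, replicate 4 for 184 and replicate 3 for 108. Replicate 2 was also the lowest for the most, 431. Over all genes above the floor, replicates 1 to 5 were the highest mouse for 28.6%, 20.7%, 11.4%, 18.9% and 20.3%. They were the lowest mouse for 17.1%, 24.7%, 24.5%, 19% and 14.8%. Within the most variable genes, the 2 highest mice were replicates 1 and 5 in 278 of the genes (19.7%) and replicates 4 and 5 in 245 (17.4%), whereas replicates 3 and 5 shared the top in 53.

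Most protein folding genes were highest in replicate 1. Cells answer unfolded protein in the endoplasmic reticulum with chaperones whose promoters hold a stress element read by ATF6 and XBP1, and unfolded protein in the cytosol with heat shock proteins driven by HSF1. Of 22 genes of the unfolded protein response, all above the floor, 18 were highest in replicate 1, against 28.6% of all genes above the floor. Of the 22, 9 were in the most variable 10%. The list mean was 9.0, 8.69, 8.72, 8.77 and 8.70 (SD 0.13, and 0.04 without replicate 1). No member passed the variance test. Hspa5, the main chaperone of the endoplasmic reticulum, had 11.04, 10.21, 10.40, 10.62 and 10.37, its highest mouse 1.79 times its lowest. Sdf2l1 had 8.73, 7.85, 7.99, 8.31 and 7.96, and the disulphide isomerase gene Pdia4 9.54, 8.79, 8.90, 8.98 and 8.91. Replicate 1 was above all others in each. Xbp1 had 9.99, 9.46, 9.32, 9.61 and 9.30, whereas Atf4 (SD 0.09) and Ddit3 (SD 0.09), of the PERK branch, were not highest in that mouse.

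The promoters of Hspa5 and Creld2 are shown because each holds the stress element and both genes were highest in replicate 1. Each window runs from 250 bases before to 50 bases after the gene's start in RefSeq (GRCm38.p6), in the direction of the gene, with the element (CCAAT, any 9 bases, CCACG), or its reverse complement, in capitals.

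Hspa5, chr2:34771840-34772139, plus strand: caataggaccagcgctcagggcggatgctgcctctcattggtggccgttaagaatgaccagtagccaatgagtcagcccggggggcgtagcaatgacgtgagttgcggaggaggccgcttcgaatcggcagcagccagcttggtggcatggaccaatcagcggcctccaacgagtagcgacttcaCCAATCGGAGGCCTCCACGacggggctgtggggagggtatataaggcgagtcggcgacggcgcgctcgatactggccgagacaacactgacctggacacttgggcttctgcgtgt

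Creld2, chr15:88819396-88819695, plus strand: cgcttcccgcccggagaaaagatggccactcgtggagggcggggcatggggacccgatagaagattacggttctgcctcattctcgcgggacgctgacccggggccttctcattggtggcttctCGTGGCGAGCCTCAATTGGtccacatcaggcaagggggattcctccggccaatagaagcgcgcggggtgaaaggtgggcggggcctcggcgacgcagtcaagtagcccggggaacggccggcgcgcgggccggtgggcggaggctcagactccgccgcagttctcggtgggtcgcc

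The element starts 65 bases before the start of Hspa5 and 126 before that of Creld2, where it lies on the opposite strand. It occurred in 7 of 20 windows of the list's members (Calr, Creld2, Dnajc3, Hsp90b1, Hspa5, Pdia6 and Syvn1) and in 0.119% of all 32851 promoter windows. Creld2 had 8.54, 8.07, 8.17, 8.35 and 8.26. A match describes letters and is not evidence that a factor was bound.

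Most cytosolic heat shock genes were also highest in replicate 1. All 15 were above the floor, and 8 were in the most variable 10%. Replicate 1 was the highest mouse for 13, against 28.6% of all genes above the floor. Over the members the mean was 9.88, 9.53, 9.66, 9.64 and 9.57 (SD 0.13, and 0.06 without replicate 1). The small heat shock protein gene Hspb1 had 8.09, 7.24, 7.51, 7.74 and 7.63, and Hspa1a, the stress-inducible Hsp70, 8.44, 7.65, 8.03, 8.08 and 7.96. The constitutive chaperone gene Hspa8, at a mean of 12.85, varied little (SD 0.08). The heat shock element (GAA, any 2 bases, TTC, any 2 bases, GAA), searched on both strands, was in 5 of 17 member windows, those of the 4 genes Chordc1, Hspd1, Hspe1 and Hsph1, and in 0.603% of all windows. Of these genes Hspe1 was not highest in replicate 1. Alas2, the haem synthesis enzyme of red cell precursors, was also highest in replicate 1, at 7.15 against 6.24 to 6.42. Slc4a1, the only other red cell gene measured, did not set that mouse apart, at 5.87, 5.75, 5.71, 5.88 and 5.87 (SD 0.08). The globin genes have no probe set assigned to 1 gene and are not used here, so blood content was not measured by them.

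Genes induced by glucocorticoids, the adrenal stress hormones, were high in 2 mice. All 16 measured were above the floor and 13 were in the most variable 10%. Their mean was 8.33, 8.37, 8.06, 8.02 and 8.0 (SD 0.18), and replicate 1 or 2 was the highest mouse for 14 of the 16. Of all genes above the floor, 28.6% were highest in replicate 1 and 20.7% in replicate 2. The pair of mice was read from these values. Lcn2, an iron-scavenging protein of the acute phase, had 6.61, 6.93, 5.94, 5.28 and 5.76 (SD 0.66, limma adjusted p = 0.0990). Sgk1, a kinase that glucocorticoids induce directly, had 9.59, 9.31, 8.84, 8.43 and 8.63. Tsc22d3, which encodes the glucocorticoid-induced leucine zipper, had 7.78, 8.24, 7.41, 7.61 and 7.50. The metallothionein genes Mt1 and Mt2 were highest in replicate 2, at 12.43 and 12.95, with the other mice at 11.97 to 12.07 and 12.47 to 12.58. Fkbp5, a cochaperone of the glucocorticoid receptor, had 7.64, 7.50, 7.30, 7.19 and 7.51.

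Immediate early genes, which neurons transcribe within minutes of activity, varied in many members but not in 1 direction. Of 33 measured, 32 were above the floor and 18 were in the most variable 10%. The list mean was 7.83, 7.60, 7.83, 7.82 and 7.72 (SD 0.10, and 0.05 without replicate 2), lowest in replicate 2, which was the lowest mouse for 17 of the 32. Among all genes above the floor, 24.7% were lowest in that mouse. Fos had 6.30, 6.12, 6.67, 6.90 and 6.73, and Arc, a synaptic effector, 9.81, 9.23, 9.94, 9.82 and 9.70. Nr4a3 had 9.79, 9.10, 9.70, 9.47 and 9.36. The orders of the higher mice thus differed from gene to gene. Egr1, at a mean of 10.17, had an SD of 0.12, and Bdnf, at 6.52, of 0.10. Homer1 and Nr4a2 were lowest in replicate 5, at 8.80 and 9.50 against at least 9.18 and 9.84. The element TGACGTCA was in 2 of 36 member windows (Btg2 and Dusp1), or 5.56%, and in 1.79% of all.

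A few interferon-stimulated genes were much higher in replicate 2 than in the other mice. Interferon signalling induces these genes through the response element that STAT and IRF factors read. Ifit3, an antiviral protein that interferon induces, had 6.76, 8.20, 6.87, 6.81 and 6.85. Replicate 2 was thus 1.33 above the next mouse, and the other 4 lay within 0.11 (SD 0.62, limma adjusted p = 0.125). Ifit1 had 5.27, 6.37, 5.11, 5.39 and 5.01, with the other 4 near the floor (SD 0.55, limma adjusted p = 0.142). Oasl2, of the oligoadenylate synthetase family, had 6.61, 7.20, 6.71, 6.55 and 6.58. Rtp4, whose mean of 4.93 was below the floor, read 5.52 in replicate 2 and 4.68 to 4.89 in the others.

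Other genes of the same list did not follow. Of 20 measured genes of the major histocompatibility complex and interferon response, 14 were above the floor, and 4 were in the most variable 10%. Replicate 2 was highest for 6 of the 14, against 20.7% of all genes above the floor. None of the 14 passed the variance test. Their mean level was 6.18, 6.50, 6.15, 6.19 and 6.21 (SD 0.14, and 0.02 without replicate 2). Irf7 (5.30 to 5.44), Bst2 (6.49 to 6.63) and Usp18 (5.07 to 5.34) were not highest in replicate 2, and Mx1, Mx2 and Rsad2 were below the floor. B2m, the light chain of class I molecules, had 11.93, 12.09, 11.85, 11.78 and 11.75.

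The promoters of Ifit1 and Ifit3, the genes of the list with the largest SDs, are shown with the response element (GAAA, any 2 bases, GAAA), or its reverse complement, in capitals, in windows as above. RefSeq gives several starts for some genes: the window of Ifit3 is set on a start 410 bases downstream of the gene's outermost one.

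Ifit1, chr19:34640639-34640938, plus strand: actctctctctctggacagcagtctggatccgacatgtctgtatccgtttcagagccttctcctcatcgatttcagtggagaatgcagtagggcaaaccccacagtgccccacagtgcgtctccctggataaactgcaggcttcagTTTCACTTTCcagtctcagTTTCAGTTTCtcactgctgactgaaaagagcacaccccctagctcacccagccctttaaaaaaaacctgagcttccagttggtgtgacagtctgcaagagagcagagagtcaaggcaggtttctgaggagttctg

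Ifit3, chr19:34583279-34583578, plus strand: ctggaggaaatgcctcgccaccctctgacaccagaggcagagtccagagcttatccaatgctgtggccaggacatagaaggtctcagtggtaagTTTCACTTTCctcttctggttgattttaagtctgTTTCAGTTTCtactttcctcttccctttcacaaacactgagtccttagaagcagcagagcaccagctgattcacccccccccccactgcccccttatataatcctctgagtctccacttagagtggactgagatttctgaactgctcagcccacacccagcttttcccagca

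Both hold 2 copies, starting 104 and 85 bases before the start of Ifit1, and 156 and 122 before the start that the window of Ifit3 is set on. The element was in 6 of 13 member windows (B2m, Bst2, Gbp3, Ifit1, Ifit3 and Oas1a) and in 3.44% of all windows. Bst2 thus holds it and was not highest in replicate 2.

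Some clock-controlled genes were also highest in replicate 2. The circadian clock is a loop in which CLOCK and BMAL1 activate Per, Cry, Nr1d1 and Dbp through E-boxes, and transcripts of these targets rise and fall over the day. The time of day at which each mouse was killed is not stated. Ciart, a repressor of that loop, had 8.27, 8.96, 8.01, 8.28 and 7.95, its highest mouse 2.01 times its lowest. Dbp, an output factor, had 8.11, 8.83, 8.32, 8.26 and 8.32. Nr1d1, the nuclear receptor REV-ERB alpha, had 10.34, 10.81, 10.27, 10.59 and 10.30. Replicate 2 was at least 0.23 above the next mouse in all 3 genes.

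Among all 15 clock genes above the floor, 8 were highest in replicate 2, against 20.7% of all genes above the floor. Of the 15, 7 were in the most variable 10%. The list mean was 8.43, 8.61, 8.37, 8.45 and 8.32 (SD 0.11, and 0.06 without replicate 2). Arntl, which encodes BMAL1, was lowest in that mouse, at 7.47 against 7.56 to 7.65, though its SD was only 0.07. Clock (SD 0.04), Cry2 (SD 0.04) and Tef (SD 0.07) were nearly constant. Nr1d2, the nuclear receptor REV-ERB beta, was highest in replicate 1, at 9.15 against 9.07 in replicate 2. Per2 had 7.63, 7.76, 7.56, 7.69 and 7.23, and Per1 8.98, 8.97, 8.84, 8.91 and 8.50, both lowest in replicate 5.

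The promoter of Ciart, the clock gene with the largest SD, is shown with each E-box CACGTG in capitals.

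Ciart, chr3:95882179-95882478, minus strand: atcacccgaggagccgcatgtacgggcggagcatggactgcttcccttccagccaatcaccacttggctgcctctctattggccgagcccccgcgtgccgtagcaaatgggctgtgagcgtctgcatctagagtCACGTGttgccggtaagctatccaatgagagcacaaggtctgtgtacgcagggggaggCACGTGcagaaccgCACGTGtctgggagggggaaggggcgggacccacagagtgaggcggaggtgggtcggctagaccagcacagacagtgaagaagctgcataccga

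The 3 E-boxes start 116, 58 and 44 bases before the start that the window is set on, which lies 29 bases downstream of the gene's outermost start. E-boxes were in 6 of 18 member windows (33.3%), those of the 5 genes Bhlhe41, Ciart, Cry1, Per1 and Tef, against 7.15% of all windows. Tef and Cry1 thus hold one and varied little.

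**Figure D3:**
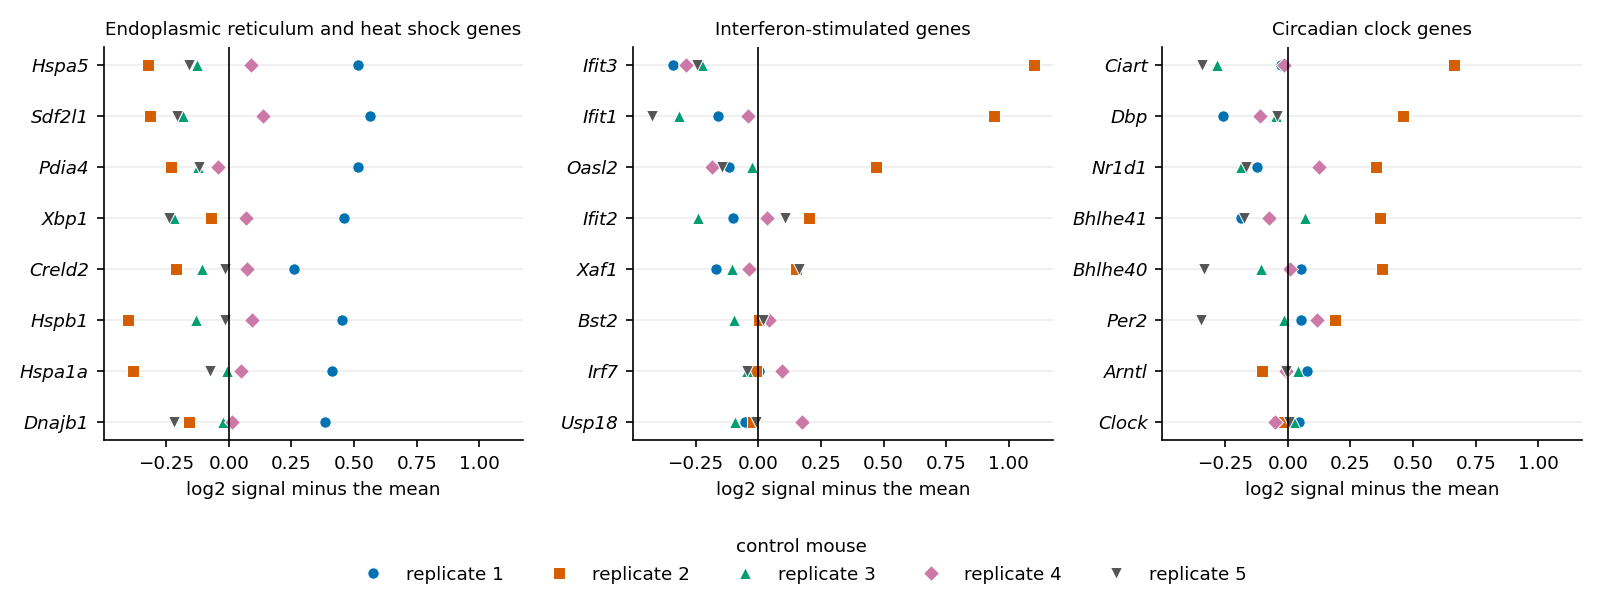
Log2 signal of each control mouse minus the mean of the 5 mice (x axis) for 8 genes of the endoplasmic reticulum and heat shock responses, 8 interferon-stimulated genes and 8 clock genes. Replicate 1 (blue circle) is highest for all 8 in the left panel, and replicate 2 (orange square) for the upper 4 of the middle panel and the upper 6 of the right panel.

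Some genes of the meninges and most of those of neighbouring cortex were highest in replicate 2 as well. Of 18 meningeal fibroblast genes 17 were above the floor, and 9 were in the most variable 10%. Of the 17, 8 were highest in replicate 2 and the other 9 in replicate 4 or 5. Replicate 2 was highest for 20.7% of all genes above the floor. Averaged over the members, the level was 6.83, 7.10, 6.91, 6.95 and 6.92 (SD 0.10, and 0.05 without replicate 2). Fmod, a collagen-binding proteoglycan, had 6.18, 7.52, 6.72, 6.59 and 6.34, and Slc6a13, a GABA transporter of the leptomeninges, 7.04, 7.63, 7.24, 7.19 and 7.01. Ptgds, the prostaglandin D synthase of meninges and plexus, had 11.21, 11.87, 11.50, 11.40 and 11.20. The fibrillar collagen genes Col1a1, Col1a2 and Col3a1 had SDs of 0.05 to 0.12 and were not highest in that mouse.

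Of 14 genes of neocortex and subiculum 13 were above the floor, and 8 in the most variable 10%. Replicate 2 was highest for 9 of the 13, against 20.7% of all genes above the floor. Over the 13 members the mean was 7.50, 7.81, 7.50, 7.65 and 7.63 (SD 0.13, and 0.08 without replicate 2). Tbr1, a transcription factor of glutamatergic cortical neurons, had 8.95, 9.53, 9.11, 9.09 and 9.05. Cux2, of upper cortical layers, had 6.97, 7.64, 7.34, 7.43 and 7.30, and Lamp5, also an interneuron gene, 8.39, 9.20, 8.52, 8.91 and 8.66. Slc17a6, the vesicular glutamate transporter of thalamus and subiculum, was highest in replicate 5 instead, at 8.43, and lowest in replicate 3, at 7.48.

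Most CA3 genes were lowest in the same mouse. Of the 8, 6 were lowest in replicate 2 and 6 were highest in replicate 1, and the list mean was 7.89, 7.49, 7.82, 7.74 and 7.79 (SD 0.15, and 0.06 without replicate 2). Among all genes above the floor, 24.7% were lowest in replicate 2 and 28.6% highest in replicate 1. Nectin3, an adhesion molecule of mossy fibre synapses, had 7.85, 7.17, 7.81, 7.68 and 7.85, Grik4 had 9.05, 8.42, 8.89, 8.72 and 8.84, and Iyd 6.05, 5.58, 6.24, 6.07 and 6.01. Each was thus at least 0.30 below the next mouse in replicate 2. Dentate genes moved less (list SD 0.07, and 0.04 without replicate 2), although 6 of 14 were lowest there, with Lct at 7.74 against 8.20 to 8.41 and Prox1 at 8.33 against 8.46 to 8.82.

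CA1 genes did not share 1 highest mouse. Of 9, 5 were in the most variable 10%. The list mean was 8.60, 8.52, 8.62, 8.38 and 8.39 (SD 0.11), lower in replicates 4 and 5. Replicates 1 to 5 were the highest mouse for 4, 2, 3, 0 and 0 of the 9 genes. Over all genes above the floor these shares were 28.6%, 20.7%, 11.4%, 18.9% and 20.3%. Wfs1, an endoplasmic reticulum protein that marks dorsal CA1, had 9.59, 10.37, 10.32, 9.99 and 9.59, whereas Fibcd1 had 8.19, 7.89, 8.11, 7.74 and 7.85 and Gpr161 8.10, 7.58, 7.81, 7.45 and 7.58. Wfs1 was thus highest in replicate 2, and the other 2 genes in replicate 1. The CA2 list had an SD of 0.20, which fell to 0.08 without Sostdc1, the member it shares with the choroid plexus list.

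Most oligodendrocyte genes were lowest in replicate 3. Of 19 oligodendrocyte genes above the floor, 11 were in the most variable 10% and 11 were lowest in replicate 3, and the mean was 9.19, 9.03, 8.97, 9.23 and 9.27 (SD 0.13). Among all genes above the floor, 24.5% were lowest in replicate 3. So were 10 of 18 astrocyte, 8 of 14 thalamus and habenula and 7 of 15 endothelial genes, but 2 of 18 microglial and 0 of 8 CA3 genes. In the oligodendrocyte list mean, replicates 1, 4 and 5 were above replicates 2 and 3, as for the thalamus list. Mal had 10.07, 10.06, 9.64, 10.10 and 10.06, and Mog 9.32, 9.09, 8.93, 9.46 and 9.48. Ugt8a, the enzyme of galactocerebroside synthesis, was lowest in replicate 2 instead, at 8.26 against 8.75 to 9.06. Opalin ran otherwise, lowest in replicate 1 at 8.32 and at least 8.64 in the rest. Mbp varied by an SD of only 0.06.

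For other cell types the list means spanned little, although single members varied. The list means of microglia, astrocytes, endothelium, mural cells, interneurons and striatal genes had SDs of 0.06, 0.06, 0.07, 0.02, 0.03 and 0.04. Of 15 endothelial genes 10 were highest in replicate 5 (list SD 0.04 without it), against 20.3% of all genes above the floor. The astrocyte SD was 0.03 without replicate 3, and the interneuron SD 0.01 without replicate 2. In the most variable 10% were 3 of 15 endothelial genes (Cldn5, Kdr and Slc2a1), 3 of 10 striatal genes (Drd2, Penk and Six3) and 1 of 14 mural genes. Of 18 microglial genes 1 was in the most variable 10%, Ly86, at 9.88 in replicate 1 and 9.34 to 9.48 in the others. P2ry12, a purine receptor of resting microglia, spanned 7.29 to 7.47. Of 18 astrocyte genes 4 were, with Aldh1l1 at 7.54, 8.0, 7.32, 7.54 and 7.58 and the water channel gene Aqp4 at 8.61, 8.09, 8.43, 8.58 and 8.55. Gfap had an SD of 0.09 and Clu of 0.03. Among interneuron genes, Gad1 spanned 10.41 to 10.51 and Sst 12.18 to 12.48, but 6 of 19 were in the most variable 10%, among them Reln (8.25 to 8.92) and Vip (7.35 to 8.01), both highest in replicate 2.

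**Figure D4:**
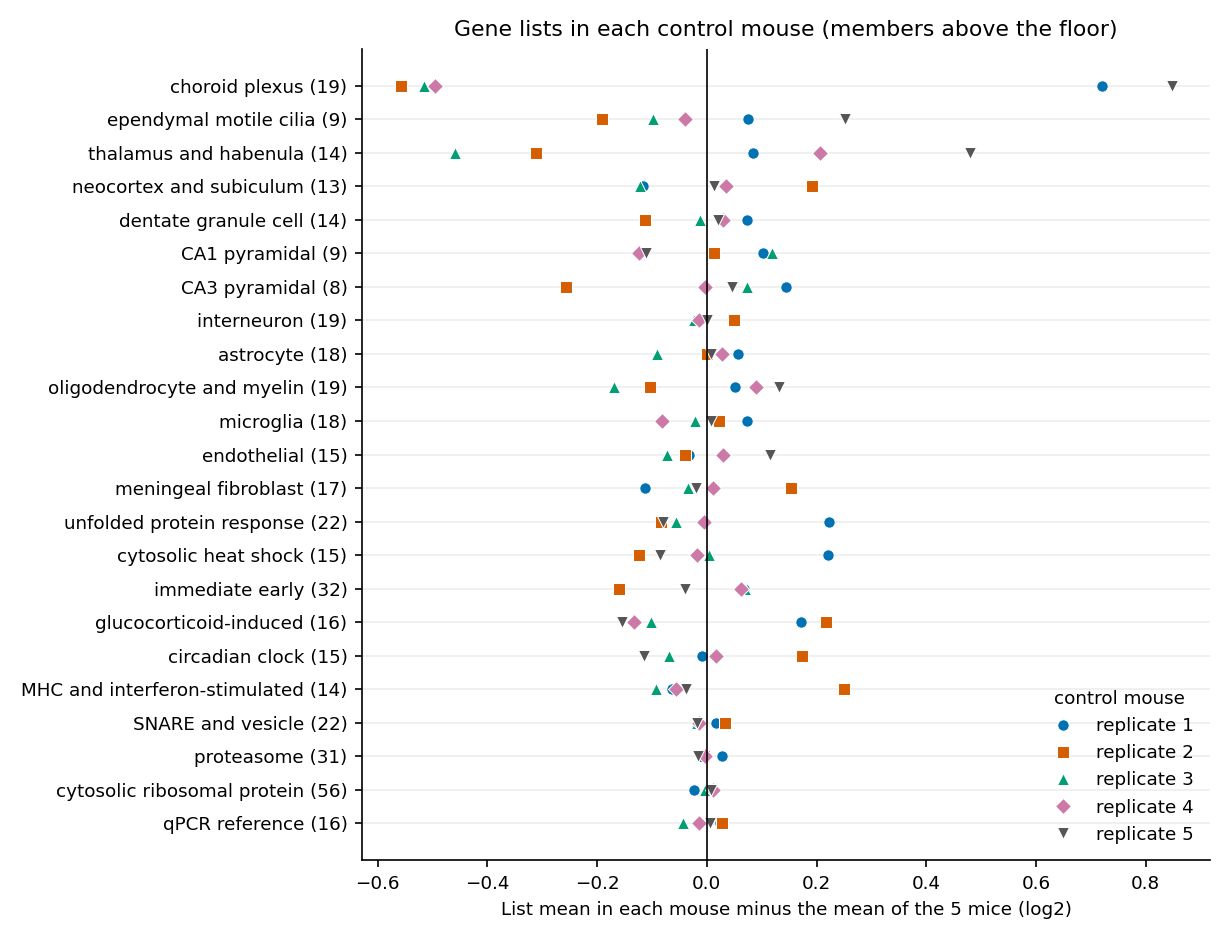
For each of 23 gene lists (number of members above the floor in parentheses), symbols give the mean log2 signal of the members in each control mouse minus the mean of the 5 mice. The choroid plexus list spans 1.40 and the thalamus and habenula list 0.94, whereas the ribosomal protein, proteasome and vesicle lists lie close to 0 in every mouse.

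Highly variable members of shared machinery were counted against the 10% share of all genes above the floor. Of 56 cytosolic ribosomal protein genes above the floor, 2 were in the most variable 10% (Rpl14 and Rps19), and their mean spanned 0.03 between mice. The proteasome list had 2 of 31, and the respiratory chain complex I list 2 of 34. Cholesterol synthesis genes had 1 of 16 and histone genes 2 of 23. The counts of the proteasome, complex I, cholesterol and histone lists lay near the 10% share. Receptor lists held 3 of 16 ionotropic glutamate receptor genes and 3 of 10 GABA-A receptor genes, the median SD of the latter being 0.10. No difference of such small counts from the 10% share was tested. The presynaptic SNARE and vesicle genes combined high signal with little spread: their median member SD was 0.06, against 0.09 for all genes above the floor. Synaptophysin (Syp) spanned 11.94 to 11.98 and synaptotagmin (Syt1) 12.73 to 12.79. The exceptions were Stx1a, a membrane SNARE, at 8.36, 8.92, 8.42, 8.57 and 8.30, and Vamp1, a vesicle SNARE, at 10.04, 10.12, 9.99, 10.37 and 10.44.

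Reference genes used to normalise quantitative PCR differed among themselves. Of 16, 1 was in the most variable 10%: the transferrin receptor gene Tfrc had 7.32, 7.75, 7.25, 7.38 and 7.65 (SD 0.21). The steadiest was Cyc1, of complex III (10.59 to 10.62, SD 0.01), followed by Actb (SD 0.03), Tbp (SD 0.03) and Ppia (SD 0.04). Hprt had an SD of 0.08 and B2m of 0.13. The 10 smallest SDs of all genes above the floor, 0.0066 to 0.0107, were those of Lrrc4b, Ank3, LOC665004, Jak1, Emc4, Dynlrb1, Ccdc159, Rpl9, Klk12 and Ctu1. Ank3, the scaffold of the axon initial segment, and Lrrc4b, a synaptic adhesion protein, had mean levels of 9.98 and 10.50. LOC665004 (5.17) and Klk12 (5.34) lay just above the floor of 5.09, and Ctu1 had 5.99. Small SDs near the floor do not by themselves show a steady transcript.

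Neuropeptide and neurogenesis genes gave further levels. Of 26 neuropeptide genes 22 were above the floor and 6 in the most variable 10%. Neuropeptide Y (Npy) had a mean of 10.73 and an SD of 0.08, whereas Adcyap1 had 6.84, 7.37, 6.71, 7.25 and 6.97 and proenkephalin (Penk) 9.80, 9.41, 9.70, 9.30 and 9.48. Of 17 genes of adult neurogenesis 12 were above the floor. Doublecortin (Dcx), of immature neurons, had 5.67, 6.08, 5.94, 6.06 and 5.77. The proliferation genes Mki67, Top2a and Cdk1 were below the floor, at 4.51, 4.62 and 4.67.

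The genes of the interval that is duplicated in Dp3Yah mice were measured here at their normal copy number. Of 21 listed genes 18 had a probe set of their own, 12 were above the floor, and 1 was in the most variable 10%. The list mean was 8.09, 8.08, 8.01, 8.02 and 8.04 (SD 0.03). Atp5j, a subunit of ATP synthase, was the brightest, at 11.71, 11.57, 11.71, 11.82 and 11.81. Ncam2, a neural cell adhesion molecule, had 9.29, 9.45, 9.21, 9.14 and 9.14, and Jam2, a junctional adhesion molecule, 9.08, 9.28, 8.85, 9.07 and 9.08. The spans of these genes were 0.25 to 0.43.

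The nuclear receptor corepressor Nrip1 had the largest spread, at 8.25, 8.27, 8.03, 7.85 and 7.89 (SD 0.20). Mrpl39, of the mitochondrial ribosome, had the smallest among those above the floor, with a mean of 9.03 (SD 0.03). Hspa13, which encodes a microsomal relative of Hsp70, had 8.62, 8.30, 8.31, 8.29 and 8.41, highest in the mouse that was also highest for most chaperones. The deubiquitinase gene Usp25 (mean 8.57), the ETS factor gene Gabpa (7.47) and D16Ertd472e (7.38) had SDs of 0.09 to 0.12. Cxadr (5.72), Samsn1 (5.80) and the microRNA host gene Mir99ahg (6.14) were the dimmest of the interval genes above the floor. Chodl, Tmprss15, Mir99a, Mir155, Mir125b-2 and Mirlet7c-1 were below it, from 3.69 to 4.61.

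**Figure D5:**
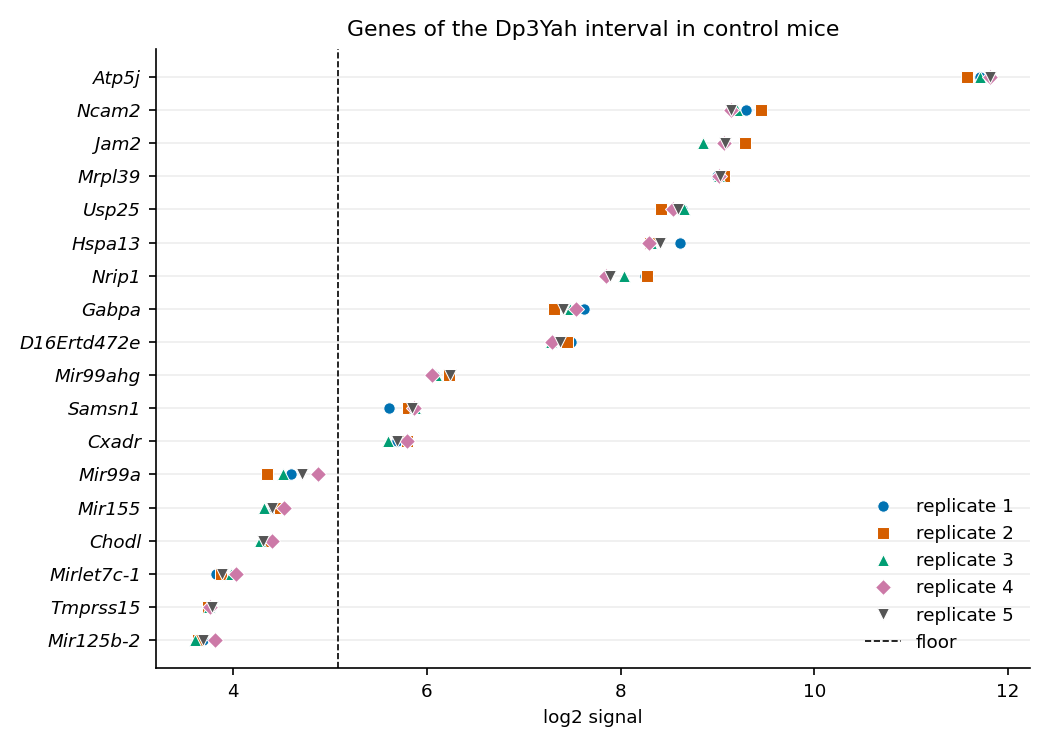
Log2 signal (x axis) of the 18 measured genes of the interval in each of the 5 control mice, ordered by mean level. The dashed line is the floor at 5.09, and 6 genes lie below it in every mouse.

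Other mouse genes homologous to human chromosome 21 (Hsa21) were listed apart from the interval, with App, which bounds it, among them. Of 63 measured, 56 were above the floor and 4 were in the most variable 10%, namely Adamts1, Adarb1, Cbs and Olig2. App, the amyloid precursor gene, had a mean of 12.31 (SD 0.03), Sod1 11.31 (SD 0.10) and Ttc3 10.60 (SD 0.03). Adamts1, a secreted protease, had 7.15, 6.75, 7.13, 7.13 and 7.54.

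Genes that are known to differ between C57BL/6 substrains were examined because the labels and the methods name different ones. Nnt, the nicotinamide nucleotide transhydrogenase gene, part of which is deleted in C57BL/6J, had 6.97, 6.97, 6.79, 7.06 and 7.01. It was above the floor in all 5 mice, but whether its probes lie in the deleted part was not examined. Gabra2, whose level is low in C57BL/6J, had 9.41, 8.84, 9.17, 9.13 and 9.05. The other members, Wdfy1 (5.43), Entpd4 (10.16), Ide (8.04), Cyfip2 (11.34) and Fgfbp3 (5.23), had SDs of 0.04 to 0.14, and Mmrn1 (4.04) and Crb1 (4.56) were below the floor.

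Small RNA genes were examined apart. Of 34 small nucleolar RNA genes above the floor, 18 were in the most variable 10%, with a median SD of 0.17. Snora3 had 9.22, 9.10, 9.07, 9.56 and 9.83, and Snord82 11.13, 11.22, 11.12, 10.64 and 10.75. Their orders of mice thus opposed each other. Of 300 microRNA genes 87 were above the floor and 16 were in the most variable 10%. These probes read the microRNA gene's transcript and not only the mature form. Among the 87, 43 were highest in replicate 4, as were 24 of 61 receptor genes of the unexpressed reference that passed the floor. Of all genes above the floor, 18.9% were highest in that mouse. The part of the receptor genes' shift in the microRNA signals was not tested.

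The order of mice was compared between probe sets of 1 gene. For 737 genes with a second probe set of different values, the highest mouse was the same in both for 330 (44.8%) and the lowest for 328 (44.5%). Among the 81 with an SD in the most variable 10% the shares were 50.6% and 53.1%. In the remaining genes the highest or lowest mouse changed with the probe set. The orders of mice given above are those of the 1 probe set kept per gene, and another probe set may give another order. These shares were not set against a share by chance.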

How the data were processed

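Hippocampal RNA of 5 control mice was measured on 1 Affymetrix Mouse Gene 1.0 ST array each. The authors deposited log2 values, which the submitters' notes describe by RMA, a background correction, quantile normalisation and summary of probes over arrays, with limma also named and the build given as mm10. No version is stated, and neither is whether other arrays were normalised together with these. Quantile normalisation makes the arrays' distributions alike, so a shift of all transcripts in 1 mouse would not be seen.

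Of 35556 probe sets, 21789 were annotated to 1 gene, 1621 to several and 12146 to none; only the first kind was used. Where a gene had several, which was so for 998, the one with the highest mean was kept, giving 19939 genes. Of these, 19856 took their symbol from RefSeq GRCm38.p6 and 83 from the platform annotation. Samples were grouped by their labels, and replicate numbers are the labels' own. The labels do not describe more than 1 array per mouse.

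The floor was the 95th percentile of the means of sensory receptor genes. Variances were compared with limma 3.58.1 (R 4.3.3), in an intercept fit with a robust prior that follows the mean, by a one-sided F test with Benjamini-Hochberg adjustment at 0.05; this was tested on simulated data. Other values were computed in Python 3.11.15 (pandas 2.3.3, SciPy 1.17.1, matplotlib 3.10.9). Alternatives changed the probe set rule, the scaling, the floor, the prior and the mice included. The number of arrays limits the precision. The gene lists, and the description itself, were chosen with earlier results of these data known, and genes named outside the rule for called and most variable genes and list members were chosen after their values were seen.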

Additional observations from a re-analysis of the deposited data

Results flagged for a closer look

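For each of 42 gene lists and 242 named genes, the gap of the highest or lowest mouse from its neighbour was set against the range of the 5 mice by Dixon's criterion. Chance alone marks about 1 in 20 groups, and 5.8% of the 14119 genes above the floor (819) were marked. No cause was tested.

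Gaps past the criterion were found for 2 of 42 list means. That count is near the share that chance alone marks, so it is no result about these lists. The interferon and histocompatibility list mean was 6.50 in replicate 2, which was 0.29 above the next mouse. The unfolded protein response list mean was 9.0 in replicate 1, which was 0.23 above the next.

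The 242 genes are those named in the text, many of them for their spread or after their values were seen. The count among them therefore describes that choice and tests nothing. Of the 242 genes 25 were marked, many of them in replicate 2. That mouse was higher for Ifit3 (8.20), Ifit1 (6.37), Oasl2 (7.20), Rtp4 (5.52), Mt1 (12.43), Mt2 (12.95), Rida (8.85), Slc38a3 (9.93) and Tbr1 (9.53). It was lower for Agt (7.36), Nectin3 (7.17) and Npy2r (6.75). Replicate 1 was higher for Alas2 (7.15), Calb1 (10.23), Ly86 (9.88), Pdia4 (9.54) and Tshb (4.29). It was lower for the Y-linked gene Eif2s3y (6.74), for Gpr151 (4.64), for Samsn1 (5.61) and for Usp17ld (5.47). Replicate 3 was lower for Mal (9.64) and Bst2 (6.49), replicate 4 was higher for Cdk1 (4.86), and replicate 5 was lower for Syp (11.94). Gpr151, Cdk1, Tshb and Rtp4 had means below the floor, and the gap of Syp was under 0.04.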

How the results depend on the processing

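The number of genes passing the variance test was 9 as reported, 17 with arrays centred on the median (the same 9 among them), 5 without the robust prior and 2 without its trend (Kcnj13 and Ttr). It ranged from 2 to 11 when 1 mouse was left out, with 2 without replicate 4 and 2 without replicate 5, and was 0 without replicates 1 and 5 together, an alternative chosen after seeing the data (981 genes at an unadjusted p under 0.05, limma). Leaving out 1 mouse gave list SDs of 0.0595 to 0.154 for heat shock, 0.0361 to 0.149 for the unfolded protein response, 0.0229 to 0.162 for interferon and histocompatibility, 0.0594 to 0.127 for the clock, 0.0526 to 0.113 for immediate early and 0.0524 to 0.112 for meningeal genes. The lowest value came without replicate 1 for the first 2 lists and without replicate 2 for the other 4. Without replicates 1 and 5 together, the choroid plexus SD was 0.0322, heat shock 0.0688 and the unfolded protein response 0.0398. The causes were not tested. The choroid plexus and thalamus spreads stayed at 0.622 to 0.764 and 0.316 to 0.439 with any 1 mouse left out. Genes above the floor numbered 11423 with the floor at the 99th percentile of receptor genes, 11994 at the median of all probe sets, and 14098 to 15462 under the other alternatives. Small list SDs depended on the scaling. With arrays centred on the median, they rose from 0.0144 to 0.0305 for ribosomal protein, 0.0168 to 0.0359 for proteasome and 0.0237 to 0.0488 for vesicle genes. For mural genes the SD fell from 0.0235 to 0.0104. With 5 arrays, and genes near the floor, small spreads cannot be told from array noise. No paired analysis was possible because a single group was described.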

Other observations

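Further genes that belong to none of the lists had large spreads. They were chosen after their values were seen, and none passed the variance test. Etnppl, which degrades phosphoethanolamine, had log2 signals of 6.89, 7.99, 6.40, 7.26 and 7.31 in replicates 1 to 5 (limma adjusted p = 0.142). Slc38a3, a glutamine transporter, had 9.20, 9.93, 9.03, 9.24 and 9.26, and Rida 8.08, 8.85, 7.87, 7.88 and 7.87. Replicate 2 was highest for each.

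The same mouse was lowest for others. Agt, the angiotensinogen gene, had 8.65, 7.36, 8.40, 8.77 and 8.72 (limma adjusted p = 0.109). Npy2r, a receptor of neuropeptide Y, had 7.96, 6.75, 7.78, 7.78 and 7.96 (limma adjusted p = 0.206). In both genes the other 4 mice lay within 0.37 of each other.

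Replicate 1 was lowest for a few of them, with the widest gap for the deubiquitinase gene Usp17ld (5.47, 6.32, 6.28, 6.56 and 6.53). Meg3, an imprinted noncoding RNA, had 7.41, 8.15, 8.39, 8.74 and 8.27 (limma adjusted p = 0.206), and Macrod2 had 8.15, 8.74, 9.26, 9.19 and 8.66. Txnip, a thioredoxin-binding protein that glucose induces, had 7.77, 7.86, 6.87, 7.05 and 6.91, high in the 2 mice that were also high for glucocorticoid-induced genes.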
